A study of Mus musculus with 12 samples.

Results

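Translational efficiency (TE), the ratio of ribosome protected fragments (RPFs) to total RNA of the same gene, was described within mouse embryonic stem cells (ESCs). The members are the genes with at least 3 CPM (a gene's reads relative to all reads of its library) in at least 3 of the 6 ESC libraries, which kept 10794 of the 22462 genes in the table. The 6 libraries, of 12 in the series, were 3 RPF and 3 total RNA libraries of ESCs grown in serum, LIF and the 2i inhibitors (PD0325901 and CHIR99021), which hold the naive state. The other 6 libraries came from epiblast-like cells (EpiLCs), collected after LIF and 2i were withdrawn, and they enter here only where a named gene's TE was compared between the cell types. The labels name no strain, genotype change, added treatment or age. The study lists a V6.5 ESC line with mCherry and GFP microRNA reporters for its ESC to EpiLC experiments, to which these libraries belong. The study calls the replicates biological, but neither it nor the labels say that these were separate cultures, so p-values measure the spread between these libraries, which may be technical.

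A ribosome shields a short stretch of mRNA from nuclease, and sequencing these stretches counts the ribosomes on each message. Dividing by the RNA in the same cells separates how heavily a message is read from how much of it there is. Initiation at the main start codon is the step most often regulated, through the cap-binding factors, through upstream open reading frames (uORFs) that take up scanning ribosomes, through pyrimidine tracts at the cap (TOP mRNAs, which answer to growth signals), and through proteins bound in the 5′ UTR, as the iron regulatory proteins are.

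The libraries held 4777262 to 13477432 counts, so that 3 counts equalled 0.223 to 0.628 CPM. The most abundant 10 genes held 3.79% to 4.56% of each total. Across kept genes the rank correlation (Spearman's rho) between libraries was 0.990 to 0.992 within RPF, 0.994 to 0.996 within total RNA and 0.905 to 0.917 between the assays. The ESC markers Pou5f1, Sox2, Nanog, Zfp42, Esrrb and Klf4 summed to 3060 to 3350 CPM in total RNA. The primed markers Dnmt3b, Otx2 and Fgf5 summed to 106 to 131 CPM in RPF and 104 to 193 CPM in total RNA, highest in total RNA replicate 2, where Dnmt3b had 183 CPM against 99.5 and 130 and Fgf5 had 25 counts against 1 and 3. Of 10 fibroblast markers 5 had at most 3 counts in each total RNA library, and the list summed to 20.3 to 24.9 CPM there and 26.4 to 34.9 CPM in RPF, most of it Fbn1. The 6 endoderm markers summed to 2.78 to 3.27 CPM in total RNA, with Afp at 0, and the 6 trophoblast markers to 78.1 to 118 CPM, with Elf5 at 0 and most of the sum from Tfap2c and Krt18. Their part in the TE values was not tested. In such bulk libraries fewer cells of a type and less RNA per cell cannot be told apart.

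The short sequences shown first are the starts of reading in 4 stress-response messages, the iron-responsive elements of both ferritin genes and the transcription starts of 2 genes of the translation machinery. In the first set the start codon is in capitals, with 9 bases before and 6 after, and each is on the principal Gencode M21 transcript (GRCm38).
Atf4 upstream ATG 1, chr15:80255294-80255311: ttttctctcATGgggcct
Atf4 upstream ATG 2, chr15:80255573-80255590: gcggccaccATGgcgtat
Atf4 upstream ATG 3, chr15:80255672-80256210, across 2 exons: gcctaagccATGgcgctc
Atf4 main ATG, chr15:80256290-80256307: ccccacaacATGaccgag
Ppp1r15a upstream ATG 7, chr7:45525451-45525468: tttgttaccATGactcag
Ppp1r15a main ATG, chr7:45525374-45525391: cccagacacATGgccccg
Ppp1r15b upstream ATG 3, chr1:133131508-133131525: ctagccgggATGgaccta
Ddit3 upstream ATG 1, chr10:127290820-127290837: gattatatcATGttgaag
Ddit3 main ATG, chr10:127295332-127295349: cgtgcagtcATGgcagct
The reading frames of Atf4 upstream ATG 1 and 2 span 36 and 3 codons and end before the main start. Those of Atf4 upstream ATG 3, with 59 codons, and Ppp1r15a upstream ATG 7, with 50 codons, run past it. Ppp1r15a and Ddit3 are written 5′ to 3′ on their own strands, which are minus and plus.

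The iron-responsive elements were searched as CAGTGN closed by 5 base pairs with an unpaired C before them, on the sense strand of the annotated 5′ UTR. The loop is in capitals, and the matches lie in 5′ UTR exons of Gencode M21 transcripts.
Ftl1, chr7:45459778-45459807, minus strand: gtcttgcttcaaCAGTGTttgaacggaaca
Fth1, chr19:9982732-9982761, plus strand: ttcctgcttcaaCAGTGCttgaacggaacc
The third set runs from 15 bases before to 15 bases after the RefSeq start (GRCm38.p6), with the longest pyrimidine run in capitals.
Rack1, chr11:48800345-48800374, plus strand: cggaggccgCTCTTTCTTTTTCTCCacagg
Eef1a1, chr9:78481710-78481739, minus strand: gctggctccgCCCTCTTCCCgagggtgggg

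TE spanned a wide range between genes. On a log2 scale, with both assays scaled to equal TMM totals, the median was -0.01, the quartiles were -0.60 and 0.47, and the 1st and 99th percentiles were -2.41 and 1.79. In ratios of single RPF and total RNA libraries of the same number, the third quartile was 2.13 ± 0.03 times the first (SD, n = 3 replicate numbers). The 99th percentile of these ratios was 21.4 ± 2.4 times the 1st. These folds include the noise of single libraries and were not taken from the fitted percentiles above. Across genes, TE correlated between replicate numbers with a Spearman's rho of 0.889 to 0.907. A TE of 0 means only an average share of footprints, because the scaling sets the centre. A gene was called high or low at a limma adjusted p below 0.05 with an absolute log2 TE above 1. The filter could be met by either assay alone, so a gene scarce in the other assay could enter only with an extreme ratio. This gave 837 high genes, 7.75% of those tested, and 1453 low genes, 13.5%. Without the fold limit 3789 genes (35.1%) lay above 0 and 3986 (36.9%) below 0 at that adjusted p.

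**Figure D1:**
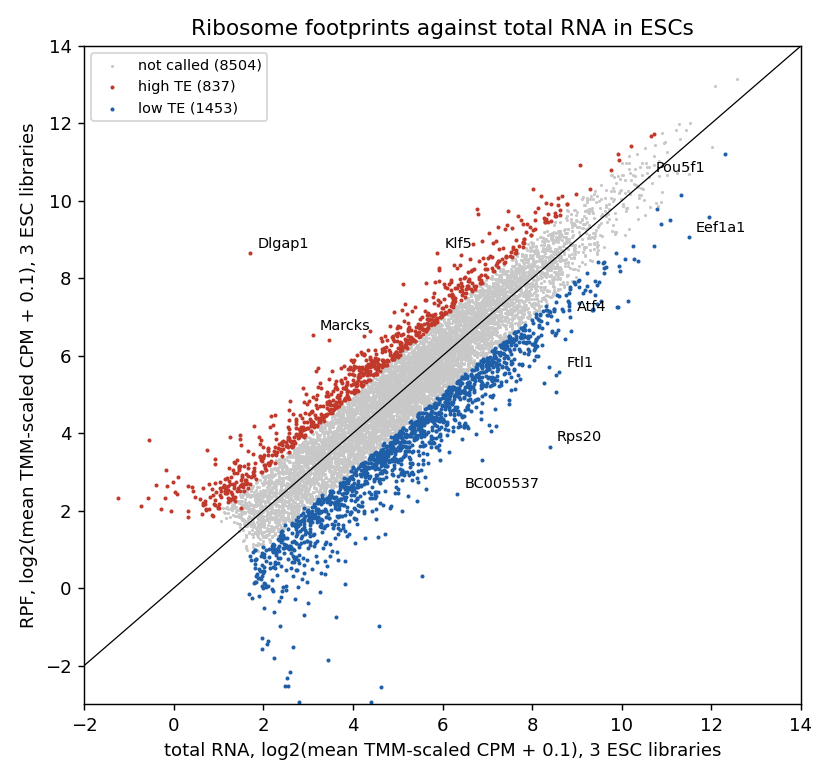
RPF (y) against total RNA (x) for the 10794 genes kept in ESCs, each as log2 of the mean TMM-scaled CPM of 3 libraries plus 0.1, with the line of equal values. The 837 genes of high TE lie above the line and the 1453 of low TE below it, and Pou5f1, with a TE of 0.01, lies on it.

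The highest TE belonged to Dlgap1 (ENSMUSG00000003279.16, chromosome 17, 70516067 to 70818234, mm10), which encodes a scaffold of the postsynaptic density. Its RPF libraries held 199, 447 and 558 CPM and its total RNA libraries 3.44, 2.44 and 3.60 CPM, a log2 TE of 6.87 ± 0.72 (SE, limma adjusted p 1.16e-07). The RPF libraries differed among themselves by more than the total RNA libraries did, and no RPF value came near a total RNA value. The total RNA side rests on 47, 29 and 42 counts and would not have met the filter without the RPF libraries. In EpiLCs its TE was 9.56.

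Marcks, a membrane and actin substrate of protein kinase C, had 100, 122 and 56.0 CPM in RPF and 9.22, 8.66 and 7.63 CPM in total RNA (TE 3.27 ± 0.29, adjusted p 1.16e-08). Cited2, a transcriptional co-regulator with 3 upstream ATGs, had 94.1, 78.7 and 79.9 CPM against 12.6, 7.65 and 12.5 CPM (TE 2.97 ± 0.15). In both genes the lowest RPF library was several times the highest total RNA library. Klf5, a Krüppel-like factor of the naive network, had 374, 417 and 407 CPM against 63.8, 57.3 and 54.9 CPM (TE 2.76 ± 0.07, adjusted p 3.41e-15), the tightest of the leading values. Snrpd3, a core protein of the spliceosome, reached 2.86 ± 0.09. Other leading genes were Hist1h2af, 2610001J05Rik, S100a11, Cd37, Chadl and Fam168a, with TE of 2.46 to 2.75. Hist1h2af and S100a11 share much of their sequence with other genes, a property taken up with the ribosomal proteins.

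Leaving aside genes under 10 counts in any of the 6 libraries, the lowest TE belonged to Rps20, a protein of the small ribosomal subunit with 4.88% unique sequence, which had 11.97, 9.57 and 15.7 CPM in RPF and 336, 324 and 350 CPM in total RNA (TE -4.70 ± 0.14, adjusted p 1.37e-14). BC005537 (chromosome 13, 24803426 to 24812762), whose annotated 5′ UTR holds 19 upstream ATGs, had 4.58, 5.11 and 6.27 CPM against 78.4, 79.4 and 82.8 CPM (TE -3.88 ± 0.18). The assays did not overlap in either gene. Ptpn4, a tyrosine phosphatase, reached -3.38 ± 0.28, Adcy1, an adenylyl cyclase, -3.34 ± 0.27, and the secreted factor Metrn -3.19 ± 0.18. The kinase gene Map3k10 followed with -3.15 ± 0.20 and the deubiquitinase gene Usp31 with -3.08 ± 0.19. Of these 5, Adcy1 had 99.97% unique sequence and the others 100%. Rpl13, Rps2, Rps26 and Ftl1 were also among the 12 lowest, and their sequence was 12.1% unique or less. None of the 12 highest and 12 lowest genes differed in TE between ESCs and EpiLCs at an adjusted p below 0.05, against 1.7% of all genes, and each had the same sign in both cell types. The smallest adjusted p among them was 0.0731, for Rps2.

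Genes whose messages carry uORFs and are read better under stress had low TE. Of 9 listed, all were kept, 6 were called low and none high, and their median lay at -1.42 relative to all genes, against 13.5% of all genes called low. Ppp1r15a, which directs the phosphatase that ends the stress response, had 6.75, 5.32 and 5.36 CPM in RPF and 29.6, 31.9 and 33.8 CPM in total RNA (TE -2.44 ± 0.18, adjusted p 9.18e-10). Atf4, the transcription factor at the centre of the response, had 137, 130 and 118 CPM against 476, 458 and 448 CPM (TE -1.85 ± 0.07, adjusted p 8.90e-14). Neither gene had an RPF value near its total RNA values. Ppp1r15b, the constitutive counterpart of Ppp1r15a, had a TE of -1.66 ± 0.08, Atf5 of -1.47 ± 0.18, Ddit3, also known as CHOP, of -1.43 ± 0.21, and Ifrd1 of -1.32 ± 0.10. Ibtk had -0.92 ± 0.07 and so missed the fold limit. Slc35a4, despite 18 upstream ATGs, had 0.08 ± 0.15 (adjusted p 0.669), and Cebpg had 0.38 ± 0.12. The 8 of these genes with at least 90% unique sequence had a median of -1.45.

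**Figure D2:**
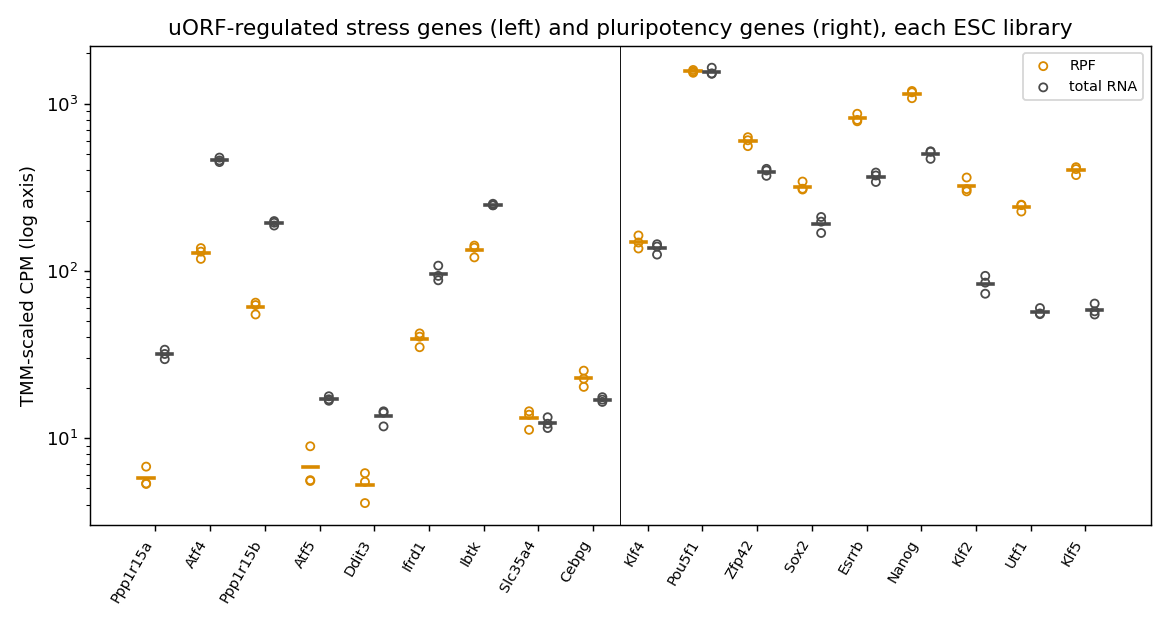
TMM-scaled CPM (log axis) of each RPF and total RNA library for 9 uORF-regulated stress genes and 9 pluripotency genes, with circles for the 3 libraries and bars for their mean. RPF lay below total RNA for Ppp1r15a, Atf4, Ppp1r15b, Atf5, Ddit3, Ifrd1 and Ibtk, and above it for Nanog, Esrrb, Klf2, Utf1 and Klf5.

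Upstream ATGs went with low TE across the table as well. The 5338 genes with none in the annotated 5′ UTR had a median of 0.19 relative to all genes, and the 2385 with 1 had -0.08, the 1138 with 2 had -0.24 and the 1921 with 3 or more had -0.42. The SD over replicate numbers of these medians was at most 0.0208. Of the genes with none 6.93% were called low, and of those with 3 or more 24.8%. Spearman's rho with the number of upstream ATGs was -0.27 over 10782 genes with an annotated transcript. This value and those that follow compare genes, not replicates, and carry no p-value. Genes with a purine 3 bases before the start codon (9233) had a median of 0.03 and those with a pyrimidine (1382) of -0.15.

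Coding length showed the steepest trend. The counted length excludes the start of the coding sequence. With genes cut into 5 equal bins, from the shortest (108 to 774 bases) to the longest (2622 bases and more) the median fell from 0.49 through 0.23, 0.03 and -0.17 to -0.51. Among the shortest 21.1% were called high, and among the longest 1.07%. Spearman's rho was -0.42. The trend was present with and without upstream ATGs: short genes without them had a median of 0.55, short genes with them 0.37, long genes without them -0.28 and long genes with them -0.68. GC content of the coding sequence had a rho of 0.21, total RNA per kilobase 0.15, 5′ UTR length -0.15, 3′ UTR length -0.13, and the number of TATTTAT motifs in the 3′ UTR -0.14. How much of each trend comes from how libraries of different fragment lengths were made was not tested.

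**Figure D3:**
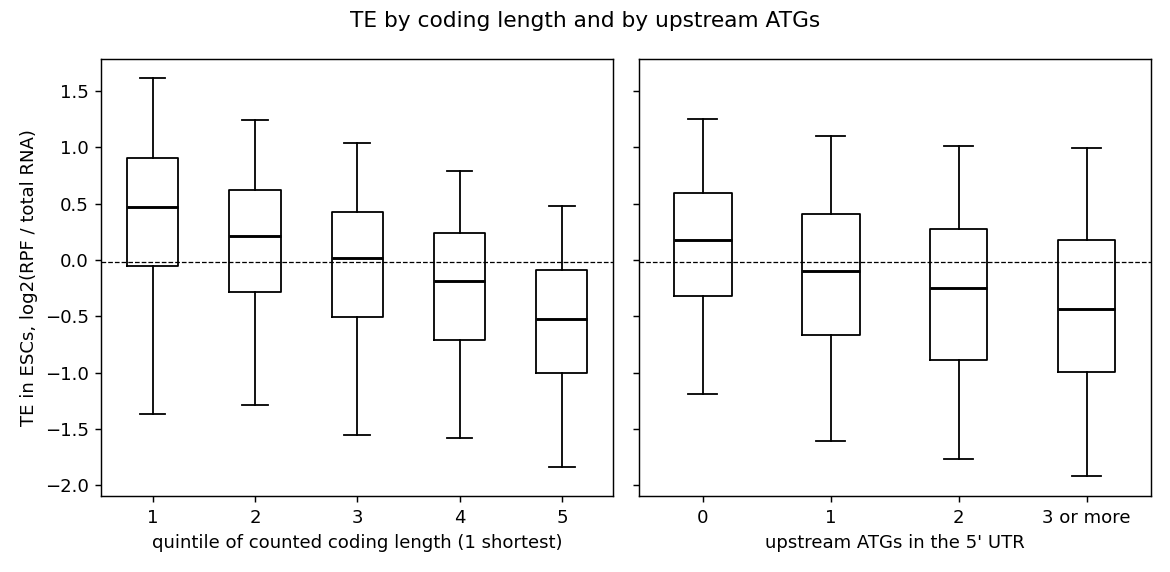
TE in ESCs (log2) by 5 equal bins of counted coding length (left) and by number of upstream ATGs (right), with boxes for the quartiles, lines for the medians and whiskers from the 5th to the 95th percentile of genes. The median fell with length from 0.49 to -0.51 relative to all genes, and with upstream ATGs from 0.19 to -0.42.

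No listed pluripotency gene was called low, against 13.5% of all genes. Of 11 genes shared by pluripotent states 4 were called high, against 7.75% of all genes, with a median of 0.75. Of 14 genes of the naive state 3 were called high, with a median of 0.58. Without total RNA replicate 2 these medians were 0.66 and 0.53. Utf1, a chromatin factor of ESCs, had 247, 249 and 227 CPM in RPF and 59.96, 55.6 and 55.1 CPM in total RNA (TE 2.07 ± 0.07, adjusted p 7.36e-14). Klf2 had 362, 299 and 308 CPM against 93.4, 73.0 and 85.1 CPM (TE 1.95 ± 0.09). Each assay was tight in both genes and the assays were far apart. Nanog, with 1079, 1170 and 1192 CPM against 516, 468 and 519 CPM, had a TE of 1.20 ± 0.05 and Esrrb 1.16 ± 0.06. Sox2 (0.73 ± 0.07) and Zfp42 (0.61 ± 0.06) lay above 0 within the fold limit. Pou5f1, the central factor known as Oct4, had 1532, 1557 and 1592 CPM against 1518, 1511 and 1642 CPM and a TE of 0.01 ± 0.04 (adjusted p 0.914), and its ranges overlapped. Its sign turned under some settings. Klf4 had 0.11 ± 0.08 (adjusted p 0.214), and the related factors Klf2, Klf4 and Klf5 ran from 0.11 to 2.76.

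The list of immediate early and short-lived factors had a median TE of 0.99. Of its 22 genes 16 were kept, 8 were called high against 7.75% of all genes, and none was called low. The lifetime of these messages was not measured in these libraries. Myc, the growth-promoting transcription factor, had 4.97, 4.68 and 7.90 CPM in RPF and 1.24, 1.76 and 1.37 CPM in total RNA (TE 2.04 ± 0.31, adjusted p 1.10e-05). Myc met the filter through RPF alone, with under 3 CPM in each total RNA library, so its high call was favoured by the filter. Id3, an inhibitor of helix-loop-helix factors, had 1.70 ± 0.29, while its relative Id2 had -0.18 ± 0.28 (adjusted p 0.573) and 0.04 without total RNA replicate 3. In the cell cycle list, 5 of 33 kept genes were called high (15.2%) and 5 low (15.2%), against 7.75% and 13.5% of all genes, with a median of -0.02. The high ones included the inhibitors Cdkn2a (1.84 ± 0.12) and Cdkn1a (1.62 ± 0.11), and the low ones Cdk16 (-2.13 ± 0.10) and Ccng1 (-2.12 ± 0.10). Cdkn1c, another of the high ones, met the filter through RPF alone, with 1.76, 2.35 and 1.97 CPM in total RNA. Its high call was thus favoured by the filter. The SR splicing factors, which bind exons, had a median of 0.63. Srsf2 (1.91 ± 0.09) and Srsf1 (1.29 ± 0.07), with 100% unique sequence, led these SR factors, and Srsf3, with 6.16%, had -1.22 ± 0.10. Of the CDC-like kinases that modify them, Clk4 (-1.29 ± 0.13) and Clk1 (-1.001 ± 0.089) were called low, the latter at the limit and lost under 8 of the alternative settings, and Clk2 (0.51 ± 0.09) and Clk3 (0.48 ± 0.09) lay above 0.

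The linker histones, which clamp DNA on the nucleosome, were all above 0, with 5 of 7 called high (7.75% of all genes) and a median of 1.06. H1f0 had 58.1, 68.5 and 71.8 CPM in RPF and 17.3, 16.7 and 20.8 CPM in total RNA (TE 1.86 ± 0.12), and H1fx had 1.75 ± 0.11. Hist1h1a, the most abundant of them, had 3067, 3474 and 3592 CPM against 1722, 1624 and 1672 CPM (1.01 ± 0.05), a call lost when totals set the scale (0.95). Hist1h1e reached 1.18 ± 0.07 and Hist1h1b 1.04 ± 0.05, the latter call also lost with totals (0.98), which left 3 of 7 high, and Hist1h1d (0.87 ± 0.05) and Hist1h1c (0.67 ± 0.05) stayed within the fold limit. Of 63 core histone genes 51 were kept, 17 called high and 5 low (7.75% and 13.5% of all genes), with a median of 0.72. However, 50 of the 51 had under 90% unique sequence.

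Nuclear genes for mitochondrial proteins had TE above the median. The 76 kept genes for mitochondrial ribosomal proteins had a median of 0.45, with 11 called high and 1 low (7.75% and 13.5% of all genes), and the 75 nuclear genes of the respiratory chain and ATP synthase had 0.50, with 9 called high and 2 low. Mrpl50 and Mrps34, of the large and small subunit, both reached 1.48. Uqcrq, a subunit of complex III, had 171, 172 and 138 CPM in RPF and 36.6, 32.8 and 37.6 CPM in total RNA (TE 2.14 ± 0.10). The low members, Mrpl30 (-2.02), Cox7a2l (-2.04) and Uqcrb (-1.68), had 52.0%, 22.1% and 10.3% unique sequence. Both lists consist of short genes, with median counted lengths of 560 and 387 bases, and the shortest bin of all genes had a median TE of 0.49.

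The kept genes of the mitochondrial genome itself, read by mitochondrial ribosomes, took 0.18% ± 0.04 of kept RPF counts and 0.61% ± 0.04 of kept total RNA counts (SD, n = 3). Of 13 listed 7 were kept, and the shares cover only these. mt-Atp6, mt-Atp8, mt-Co2, mt-Nd3 and mt-Nd4l had 0 counts in every library, and mt-Co3 had 2 counts in a single total RNA library. Among the kept genes mt-Co1 has 33.9% unique sequence, mt-Nd4 38.5% and mt-Nd1 100%, and the others have 81.3% to 92.2%. The part of uniqueness in the shares and TE values was not tested. mt-Co1, of complex IV, had 633, 948 and 711 CPM against 4270, 3829 and 3719 CPM (TE -2.41 ± 0.09), and mt-Nd1, of complex I, had -2.25 ± 0.10. mt-Nd4 had -1.43 ± 0.11, and mt-Nd2 (-0.98), mt-Nd5 (-0.89) and mt-Cytb (-0.87) missed the fold limit, which all 3 passed without RPF replicate 2 (-1.047, -1.02 and -1.01). mt-Nd6, the protein gene on the other strand, ran the other way, with 194, 277 and 228 CPM in RPF and 89.0, 56.7 and 48.8 CPM in total RNA (TE 1.84 ± 0.15).

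Enzymes and complexes of basic metabolism had medians above that of all genes, of which 7.75% were called high. The medians were 0.67 for cholesterol synthesis (3 of 19 called high), 0.47 for the MCM and GINS helicase (0 of 11), 0.42 for the proteasome (3 of 36), 0.32 for glycolysis (2 of 15), 0.25 for the aminoacyl-tRNA synthetases (2 of 23) and 0.19 for the CCT chaperonin (0 of 7). The shares for the proteasome (8.33%) and the synthetases (8.70%) were near that of all genes. Nsdhl, a sterol dehydrogenase, had 54.6, 61.3 and 66.9 CPM in RPF and 23.2, 22.8 and 21.5 CPM in total RNA (TE 1.44 ± 0.10), and Dhcr7, the last step to cholesterol, had 1.15 ± 0.08. Among the synthetases Wars (1.17 ± 0.08) and the scaffold Aimp2 (1.21 ± 0.07) led, and Eprs (-0.17 ± 0.04) came last. The CCT subunits, which form the rings of a folding chamber, ran from 0.04 for Cct4 to 0.51 for Cct8, and 1 of the 8 listed subunits was not analysed here. The helicase subunits were likewise close, from 0.07 for Mcm6 to 0.90 for Gins1. In the matrix list, where 39 of 81 genes were kept, the median was 0.35, with Sparc at 1.52 ± 0.06 and Itgb5 at -1.22 ± 0.08 and Lama5 at -0.73 ± 0.05.

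The miRNA and mRNA decay machinery mostly had TE below the median. Of 31 genes 30 were kept, 11 were called low against 13.5% of all genes, none high, and the median was -0.74. Cnot6, a deadenylase, had 20.1, 19.4 and 17.7 CPM in RPF and 84.2, 80.0 and 83.4 CPM in total RNA (TE -2.13 ± 0.11, adjusted p 6.55e-12), and its partner Cnot7 had -1.76 ± 0.14. The highest were Edc3, a decapping factor (0.83 ± 0.08), and Cnot11 (0.82 ± 0.10). The list holds long genes (median counted length 2244 bases), and 22 of the 30 have an upstream ATG. The largest list, the Zfp genes for zinc finger proteins, had 308 of 395 kept, 114 called low (37.0%) and 3 high, with a median of -0.70. Of the 217 with at least 90% unique sequence 62 were called low and the median was -0.54. The 308 kept Zfp genes had a median coding GC of 46.3%, and 202 of them have an upstream ATG. In the bin of lowest coding GC among all genes 23.9% were called low. The part of these features in the low TE of Zfp genes was not tested. Zfp36l1 (1.55 ± 0.12) and Zfp36l2 (1.30 ± 0.14), which share the name but bind AU-rich RNA, were the highest.

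The iron genes split. Ferritin messages had low TE, with Ftl1 at 57.4, 59.1 and 26.8 CPM in RPF and 419, 397 and 350 CPM in total RNA (TE -3.22 ± 0.17) and Fth1 at 212, 228 and 193 CPM against 446, 475 and 462 CPM (TE -1.14 ± 0.06, adjusted p 1.87e-11). Tfrc, which imports iron and carries its elements in the 3′ UTR, had 0.15 ± 0.05, Slc11a2 -0.22 ± 0.10 and Epas1 0.32 ± 0.11. The element printed above was found in 21 of 21690 annotated 5′ UTRs (0.0968%), 13 of them in kept genes. Ftl1 has 12.1% and Fth1 72.9% unique sequence.

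Polyamine genes were low too, with 6 of 7 kept genes called low, against 13.5% of all genes, and a median of -1.44. Odc1, the first enzyme of polyamine synthesis, had 44.96, 35.7 and 36.6 CPM in RPF and 282, 342 and 305 CPM in total RNA (TE -2.98 ± 0.11). Azin1, which frees Odc1 from antizyme, had 54.9, 47.4 and 42.2 CPM against 147, 151 and 143 CPM (TE -1.63 ± 0.09). The antizymes Oaz2 (-1.91 ± 0.27) and Oaz1 (-1.24 ± 0.18), made through a frameshift, the acetyltransferase Sat1 (-1.46 ± 0.20) and the oxidase Smox (-1.13 ± 0.16, and -0.88 without RPF replicate 1) followed. Odc1, Oaz1, Oaz2 and Sat1, 4 of the 6 low genes, have 16.8%, 9.33%, 31.6% and 52.6% unique sequence, whose part in these values was not tested. Srm, spermidine synthase, had -0.11 ± 0.07 (adjusted p 0.168). Among the selenoproteins, which recode a stop codon, 3 of 16 were called low (18.8%) and 1 high (6.25%), against 13.5% and 7.75% of all genes, with a median of -0.05. Sephs2 had -2.03 ± 0.10 and Gpx1 -1.56 ± 0.07, and Selenos had 1.04 ± 0.10, which was 0.99 without RPF replicate 3.

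The cytosolic ribosomal proteins had the lowest median of the large lists, and it has to be read with the uniqueness of their sequence. Of 79 genes 54 were kept, 36 called low and 3 high (13.5% and 7.75% of all genes), with a median of -1.31. They took 1.08% ± 0.02 of kept RPF counts and 2.17% ± 0.05 of kept total RNA counts. Only reads with a single position in the genome had been counted, RPF reads were shorter than total RNA reads, and many ribosomal protein genes have processed pseudogenes. In the kept genes a median of 6.96% of 29-nt windows of the coding sequence occurred in no other gene's transcript, and 53 of the 54 had under 90%. Rpl13a, which had 0 counts in all 6 libraries, was among the 25 not kept. Rack1, a scaffold on the small subunit with 94.4% unique sequence, is in the list of other TOP messages, not among these 54. It had 2505, 2646 and 2854 CPM in RPF and 4133, 4161 and 4048 CPM in total RNA (TE -0.62 ± 0.04, adjusted p 5.05e-10), within the fold limit. The assays did not overlap in this gene. The highest ribosomal protein genes, Rps7 (2.80 ± 0.42) and Rpl10 (1.34 ± 0.29), had 0% unique sequence, with 6 to 12 and 24 to 27 counts in total RNA. Rpl35 (-5.27 ± 0.32) had 6 to 14 counts in RPF and 479 to 668 in total RNA.

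**Figure D4:**
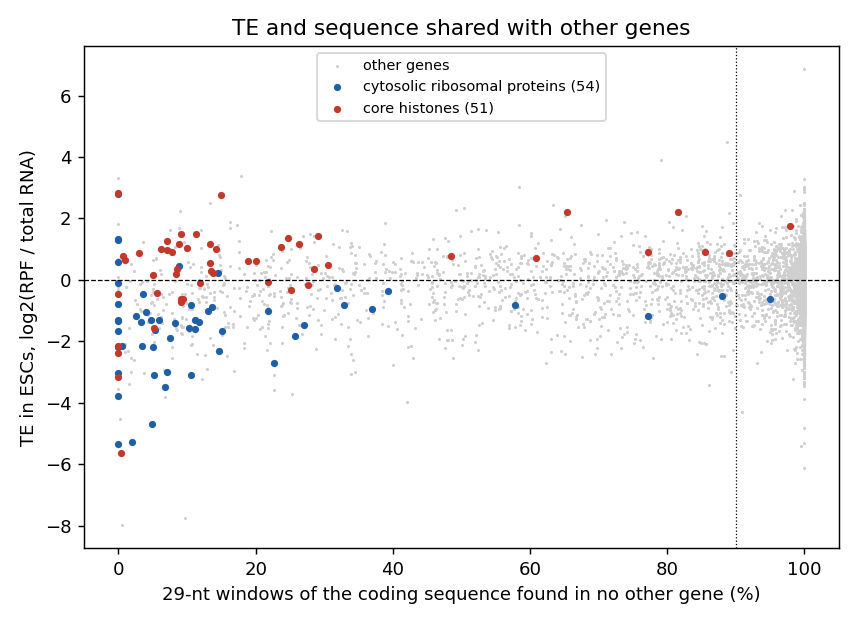
TE in ESCs (log2, y) against the percent of 29-nt coding windows found in no other gene (x), with the 54 kept ribosomal protein genes and 51 core histone genes coloured and a dotted line at 90%. Both lists sit at the left, the ribosomal proteins mostly below 0 and the histones mostly above it.

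Across all genes the 602 with under 50% unique windows had a median of -0.39 and the 7691 with 100% of 0.04. The 552 of the former that are not ribosomal protein genes had -0.31. The core histones, with a median of 11.9% unique windows, had a median TE of 0.72. The part of uniqueness in the low TE of ribosomal proteins was not tested. The other TOP messages had a median of -0.61 and 4 of 16 called low (25%, against 13.5% of all genes). The lowest were Eef1a1, the main elongation factor, at -2.42 ± 0.07 and Pabpc1, the poly(A)-binding protein, at -1.91 ± 0.06. Vim (0.55 ± 0.06) and Hnrnpa1 (0.97 ± 0.21, and 1.24 without RPF replicate 3, past the limit) were the highest. Of the 16 genes 13 had under 90% unique sequence, among them all 4 called low, with Eef1a1 at 11.4% and Pabpc1 at 46.7%. The part of uniqueness in the low TE of these messages was not tested either. A C followed by pyrimidines, 8 in all, within 20 bases of a RefSeq start was found in 20 of 41 matched kept ribosomal protein genes, 3 of 10 other TOP genes, and 14.5% of 27025 genes. Ribosomal protein genes with such a run had a median TE of -1.35 and those without it of -1.30. Among 38 initiation factors the median was 0.33, with 3 called high (7.89%) and 5 low (13.2%), near the 7.75% and 13.5% of all genes, and TE ran from Eif3k, a subunit of the scaffold eIF3 (1.16 ± 0.06), to Eif4a1, the helicase (-2.36 ± 0.15), and Eif1, which guards start selection (-2.61 ± 0.39). The last 2 have 0.958% and 2.23% unique sequence. Eif1 met the filter through total RNA alone, with 1.27, 0.638 and 2.00 CPM in RPF. Its low call was thus favoured by the filter.

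**Figure D5:**
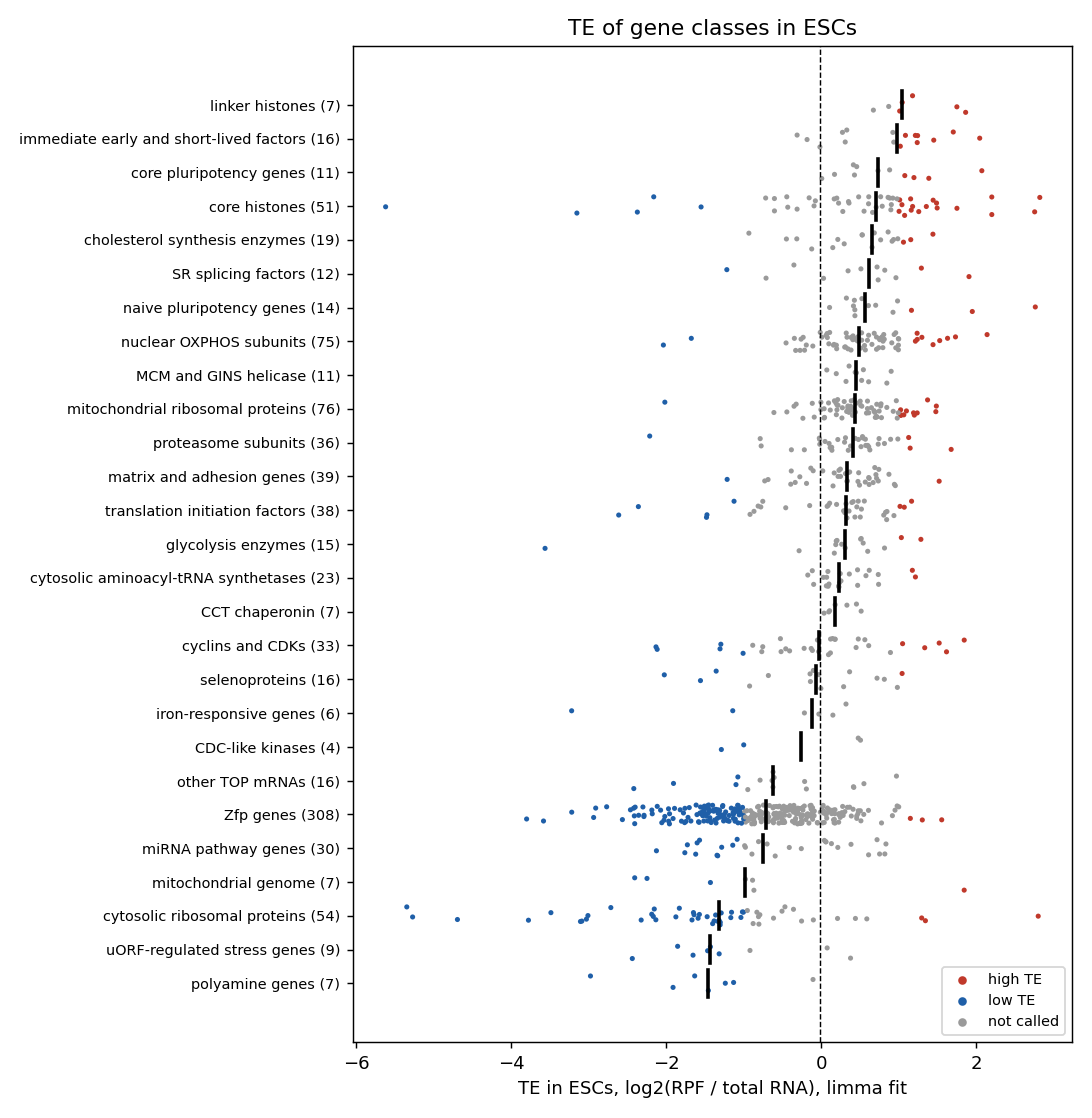
TE in ESCs (log2, x) of the kept members of 27 gene lists, with their number in brackets, a black bar for the list median and a dashed line for the median of all genes. Linker histones and short-lived factors lie furthest right, and ribosomal proteins, uORF-regulated stress genes and polyamine genes furthest left.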

How the data were processed

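Ribosome profiling and total RNA libraries were made from ESCs with the TruSeq Ribosome Profiling kit. The authors deposited raw counts per gene. Per the file headers and the study's methods, cutadapt (1.14) removed adapters, STAR (2.5.3a) kept reads with a single position on mm10, and featureCounts (1.5.3) counted 5′ read ends in sense over coding sequence without its start. How PCR duplicates were treated is not given in the sources used here, so floors of 3 counts cover counting error only. Groups and replicate numbers came from the sample titles.

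Genes with at least 3 CPM in at least 3 of 6 libraries were kept, scaled with TMM (edgeR version 4.0.16) and tested with limma (3.58.1, after voom, R 4.3.3), RPF minus total RNA, 2-sided, with Benjamini-Hochberg adjustment over 10794 genes. The study's methods name limma, with assay and cell type in a linear model and changes in translation read from their interaction. The difference between cell types was the interaction of assay and cell type over 12 libraries. CPM in the text is TMM-scaled, except the marker sums. The step was tested on simulated data of 10794 genes: of 200 genes changed by 1.5 on the log2 scale it recovered 200, with 2 false calls. Libraries of 1 group differed beyond sampling noise (chi-square per degree of freedom 2.96 to 7.19).

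Unique sequence is the percent of 29-nt windows of the counted exons found in no Gencode M21 transcript of another gene. Gencode M21 is a later release than the M14 used for counting. Genes sharing counted bases with another gene numbered 526 in the table.

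Named genes are the 12 highest and 12 lowest TE among called genes with a symbol, at least 10 counts in each library, no shared base and 1 sign in all 3 same-numbered pairs, the 2 highest and 2 lowest of each list, any member of lists under 12, and 6 pluripotency markers. Rack1, mt-Nd2, mt-Nd4 and mt-Nd5 were named after their values were seen. Some genes the rule names are not reported here. The members and gene lists were chosen with earlier results of these data known. List medians carry no test and are given relative to the median of all genes. Alternatives were other scalings, edgeR, DESeq2 version 1.42.0, other count filters, a replicate block, all 12 libraries and each library left out.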

Additional observations from a re-analysis of the deposited data

Results flagged for a closer look

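For 9 of the genes named in the report the TE differed between the cell types by a test of the difference itself, the interaction of assay and cell type in limma over 12 libraries. Of all genes 1.7% did so. Fth1 was lower in EpiLCs by a log2 difference of -0.75 ± 0.11 (SE, adjusted p 0.000287), with a TE of -1.14 in ESCs and -1.84 in EpiLCs. Of the uORF-regulated genes, Atf4 had a difference of -0.45 ± 0.11 (adjusted p 0.044) and Ibtk of -0.42 ± 0.10 (adjusted p 0.0334), so that both were read less in EpiLCs. Ccng1, a cyclin, had -0.75 ± 0.16 (adjusted p 0.0145), and the linker histone gene Hist1h1c -0.43 ± 0.09 (adjusted p 0.0181).

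The other 4 were higher in EpiLCs. Eif4a1 had a difference of 1.137 ± 0.257 (adjusted p 0.0209), Pabpc1 of 0.61 ± 0.10 (adjusted p 0.0013), mt-Co1 of 0.87 ± 0.17 (adjusted p 0.00774) and Lama5, a laminin chain of the basement membrane, of 0.50 ± 0.08 (adjusted p 0.00119). Each of the 9 also passed with the replicate number as a block and with edgeR's quasi-likelihood test. Eif4a1, Pabpc1 and mt-Co1 have under 50% unique sequence, whose part in these differences was not tested. In every one of the 9 the TE kept its sign between the cell types.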

How the results depend on the processing

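Depth set the limits for genes with few counts, and scaling set the centre of TE. Calls high and low numbered 704 and 1620 when library totals set the scale, which moved the median TE to -0.077 and the share of high among calls from 36.6% to 30.3%. With no fold limit they numbered 3789 and 3986. Other settings gave 795 to 1127 high and 1348 to 2020 low, the largest when every gene with a count was tested (16376 genes). Leaving out 1 library gave 812 to 903 high and 1404 to 1480 low. The cause of the changes below was not tested.

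The study describes the total RNA as matched to the footprints, but the main test used no pairing of replicate numbers. Deviations of same-numbered RPF and total RNA libraries correlated weakly, with r of -0.0138, 0.0432 and 0.0889, all below 0.1. RPF replicates 2 and 3 correlated best with the total RNA library of the same number, and RPF replicate 1 with total RNA replicate 2. The replicate block gave 828 high and 1424 low, a median of 0.187 for the CCT chaperonin, and a TE of 1.07 for Hnrnpa1, past the limit.

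Testing genes with at least 10 counts gave an interquartile fold of 2.09, medians of 0.30 for initiation factors, 0.22 for aminoacyl-tRNA synthetases, 0.42 for mitochondrial ribosomal proteins, 0.16 for CCT, -0.63 for Zfp genes, -0.28 for CDC-like kinases, -0.77 for the miRNA pathway and 0.39 for glycolysis, and a rho of -0.44 with length, 0.068 with unique sequence and 0.12 with RNA per kilobase. edgeR gave 0.47 for mitochondrial ribosomal proteins.

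Keeping only genes with at least 90% unique windows, an alternative chosen after seeing the data, left 1 ribosomal protein and 1 core histone gene, too few for a median. It gave medians of -0.22 for other TOP messages, 0.36 for initiation factors, 0.58 for mitochondrial ribosomal proteins, -1.56 for the mitochondrial genome, 0.52 for the proteasome, 0.10 for CCT, 1.39 for linker histones, -0.54 for Zfp genes, 0.81 for SR factors, -0.27 for CDC-like kinases, 0.81 for naive and 0.59 for core pluripotency genes, and 0.30 for glycolysis. The iron median turned to 0.15, on 3 genes without either ferritin.

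Leaving out 1 library gave medians of 0.44 to 0.49 for mitochondrial ribosomal proteins, 0.40 to 0.46 for the proteasome, 0.176 to 0.206 for CCT, -0.30 to -0.24 for CDC-like kinases, -1.51 to -1.21 for uORF-regulated genes, -0.80 to -0.71 for the miRNA pathway, 0.30 to 0.37 for glycolysis and -0.023 to 0.035 for cyclins and CDKs. Single replicate numbers gave a rho with length of -0.412, -0.406 and -0.411. Replicate 1 gave 0.187 with coding GC, 0.219 with third-position GC, -0.140 with 5′ UTR length, -0.115 with 3′ UTR length, -0.125 with TATTTAT and 0.0688 with unique sequence. Replicate 2 gave -0.247 with upstream ATGs, -0.217 with upstream frames and 0.132 with RNA per kilobase, and replicate 3 gave -0.141 with 5′ UTR length.

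Signs turned for genes near 0. Pou5f1 had -0.055 with library totals, -0.016 with every gene, -0.020 with at least 10 counts and -0.015 to 0.044 with 1 library left out. Id2 had -0.35 to 0.040 with 1 library left out, and Cct4 had -0.027 with library totals.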
